A study of Mus musculus with 170 samples.

Results

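A set of 10 genes that build the extracellular matrix of the embryonic heart was followed in single cells of the ventricle. The members were Col1a1, Col1a2, Col3a1, Col5a1 and Col5a2, which encode chains of the fibrillar collagens I, III and V, Postn and Fn1, which encode periostin and fibronectin, and Vcan, Hapln1 and Has2, whose products make and link the hyaluronan gel. The 10 members were chosen by name, and all 10 had a row among the 40549 genes of the expression table. Ventricles of E9.5 mouse hearts, on a C57BL/6 background, were dissociated with trypsin and collagenase IV and their cells picked by hand. Control hearts, which the labels call wild type, were Dgcr8 loxP/loxP with the Rosa26 mT/mG membrane reporter and no Cre. The conditional knockout (cKO) hearts, labelled Mesp1Cre/+; Dgcr8-/-, had Mesp1 Cre/+ on top of Dgcr8 loxP/loxP, with Rosa26 mT/mG/+ as the reporter. Both genotypes thus carried floxed Dgcr8 alleles and the reporter. Mesp1 Cre acts in the mesoderm that gives rise to myocardium, endocardium and epicardium, so the deletion was not limited to muscle cells. The Dgcr8 protein binds primary microRNA transcripts for cleavage by Drosha, and without it most microRNAs are not made.

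The table held 143 cells, 74 control and 69 cKO, sequenced in 2 batches of 35 and 39 control cells and 35 and 34 cKO cells. Values were in TPM, which divides reads by transcript length and then scales each cell to 1 total, and levels are given as log2(TPM + 1). A gene was called detected in a cell at a TPM of at least 1. The labels name no embryo, so each genotype counted as 1 sample, no test was run, and all SDs describe the spread between cells of that sample. Intervals on shares are exact Clopper-Pearson 95% intervals and cover counting error only. Depth is unknown because no counts were given, and the number of genes with a TPM above 0 was used in its place, with medians of 8820 in control and 8456 in cKO cells. Sex and genotype could not be told apart: Xist, the non-coding RNA of the inactive X, was detected in 3 control and 64 cKO cells, and the Y-linked Ddx3y in 49 control cells and 0 of 69 cKO cells (limit 4.35%, from 3 cells of the total).

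Cells were sorted into classes by Ward clustering on 56 marker genes, none of which was a member or another fibrillar matrix gene. The cardiomyocyte-like class held 27 control cells, 19 of batch 1 and 8 of batch 2, and 67 cKO cells, 33 and 34 by batch, and 15 of 15 cardiomyocyte markers were raised in it. The endothelial-like class held 22 control cells and had 13 of 13 endothelial markers raised. The epicardial-like class held 13 control cells, with 7 of 8 epicardial and 3 of 12 mesenchymal markers raised. The erythroid-like class had 5 control cells, and 9 cells led by mitochondrial transcripts (7 control and 2 cKO) stayed unnamed. Endothelial-like and epicardial-like cells were 0 of 69 among cKO cells, where 3 cells of the total set a limit of 4.35%. This share describes the cells picked and not the heart, since the authors saw Nfatc1 and Pecam1 signal in cKO hearts by in situ hybridization. They propose that cKO cardiomyocytes came apart more easily and that endocardial cells may have been damaged, which was not tested here. The authors had left out cells whose reporter went against their genotype. The members could thus be compared between genotypes in cardiomyocyte-like cells alone. Hapln1 and Col3a1 were among the 10 genes that most set the endothelial-like cells apart although neither was used to form the classes.

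At midgestation the heart wall is a sheet of beating muscle outside and a sheet of endocardium inside, with a hyaluronan-rich gel, the cardiac jelly, between them. Hyaluronan is spun out at the cell surface by hyaluronan synthases, and versican, a large chondroitin sulfate proteoglycan, binds to it with the help of link proteins. The jelly swells under the endocardium, is invaded by cells where valves form, and is cleared as trabeculae mature. Fibrillar collagens are secreted as procollagens of 3 chains, and collagen V starts the fibrils of collagens I and III, while fibronectin is the scaffold on which early fibrils are laid.

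Fibrillar collagen genes are textbook targets of the miR-29 family, so the members' annotated 3′ untranslated regions (3′UTRs) were searched for matches to its seed. The mature sequences (RefSeq) show why the family is read as a single set: bases 2 to 8, in capitals, are the same in all of its members. The let-7a seed is shown beside it as an abundant microRNA of differentiated cells, and miR-541-5p because the study tested miR-541 in cultured cardiomyocytes.
mmu-miR-29a-3p: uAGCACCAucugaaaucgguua
mmu-miR-29b-3p: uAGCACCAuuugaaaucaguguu
mmu-miR-29c-3p: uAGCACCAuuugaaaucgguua
mmu-let-7a-5p: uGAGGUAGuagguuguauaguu
mmu-miR-541-5p: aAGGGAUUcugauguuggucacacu

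The match to the miR-29 seed, TGGTGCT on the transcript strand, lay in the longest annotated 3′UTR of 6 of the 10 members (GENCODE on GRCm38) and of 13.1% of 20993 protein-coding genes. Col5a1 held 4 matches, and Col1a1, Col3a1, Col5a2, Hapln1 and Has2 held 1 each, while these letters were not in the 3′UTRs of Col1a2, Postn, Fn1 and Vcan. The let-7a match, CTACCTC, was in Col1a1, Col1a2, Col3a1 and Col5a2 and in 9.02% of all genes. The miR-541-5p match, AATCCCT, was in Hapln1 alone among the members and in 8.09% of all genes. Members with a miR-29 match had 3′UTRs from 959 bases in Col3a1 to 3503 in Hapln1, against a median of 961 over all genes. Of those without one, Col1a2, Postn and Fn1 had 882, 738 and 692 bases, and Vcan had 1919. The shares over all genes were not adjusted for length. The miR-29 sites with their flanks, capitals marking the seed match, are given 5′ to 3′ on the transcript strand.
Col1a1, chr11:94952528-94952549, plus strand: aaggaatttcTGGTGCTataga
Col3a1, chr1:45348972-45348993, plus strand: aatgtctcaaTGGTGCTataat
Col5a1, chr2:28037994-28038015, plus strand: tatgaacattTGGTGCTgaatt
Col5a1, chr2:28038024-28038045, plus strand: ttgtctcttgTGGTGCTatgtg
Col5a1, chr2:28038340-28038361, plus strand: tgaatgtttgTGGTGCTaatct
Col5a1, chr2:28038712-28038733, plus strand: agagtcactcTGGTGCTtgtgt
Col5a2, chr1:45374961-45374982, minus strand: cttttaatgaTGGTGCTaaaat
Hapln1, chr13:89610220-89610241, plus strand: gtataggaaaTGGTGCTgatca
Has2, chr15:56666080-56666101, minus strand: ttatcttggcTGGTGCTgtgta
A match is a string of letters and not a measured site, and microRNAs themselves were not measured in these libraries, which were primed on poly(A) tails. The study profiled microRNAs of E9.5 hearts separately. Its list of the most abundant ones holds miR-541-5p but no miR-29 or let-7 member, and the microRNAs that lead that list were not searched here.

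Some members are neighbours in the genome (GRCm38). Hapln1 (chr13:89539796-89611652, plus strand) and Vcan (chr13:89655312-89742509, minus strand) lie 43.7 kb apart. Col3a1 (chr1:45311538-45349706, plus strand) and Col5a2 (chr1:45374321-45503282, minus strand) lie 24.6 kb apart. Fn1 is farther along the same chromosome, at chr1:71585520-71653200 on the minus strand, and its span overlaps the annotated gene Apol7d, as that of Vcan overlaps Gm16318 and Gm4117. Has2 overlaps the antisense transcript Has2os, and since the library kit does not mark strand, reads of the pair cannot be told apart where they overlap.

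In control hearts most members were higher outside the cardiomyocyte-like class, and Vcan was higher within it. Cardiomyocyte-like cells had Vcan and Fn1 and little else of the list. Members detected in most endothelial-like cells were Fn1, Hapln1 and Col3a1 (22 of 22 cells each), Col5a2 (17) and Vcan (14). Those detected in most epicardial-like cells were Fn1 (13 of 13 cells), Col1a2 (12), Hapln1 and Vcan (11 each), Col1a1 (10), Postn (8) and Has2 (7). A control cardiomyocyte-like cell had a median of 3 of the 10 members detected (range 2 to 6), an endothelial-like cell 6 (5 to 8) and an epicardial-like cell 7 (2 to 8). Of the 10 members, 7 were higher in endothelial-like than in cardiomyocyte-like control cells, where higher means a mean log2(TPM + 1) at least 1 above and the same direction in both batches. The share of all 13130 genes compared that did so was 20.5%. Again 7 of 10 were higher in epicardial-like cells, against 19.4% of 11909 genes. Vcan was the 1 member lower in each of these classes than in cardiomyocyte-like cells, where 8.11% and 7.73% of genes were lower. Only Vcan, Fn1 and Col5a1 had a mean above 1 in control cardiomyocyte-like cells, so no other member could be lower by this rule.

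**Figure D1:**
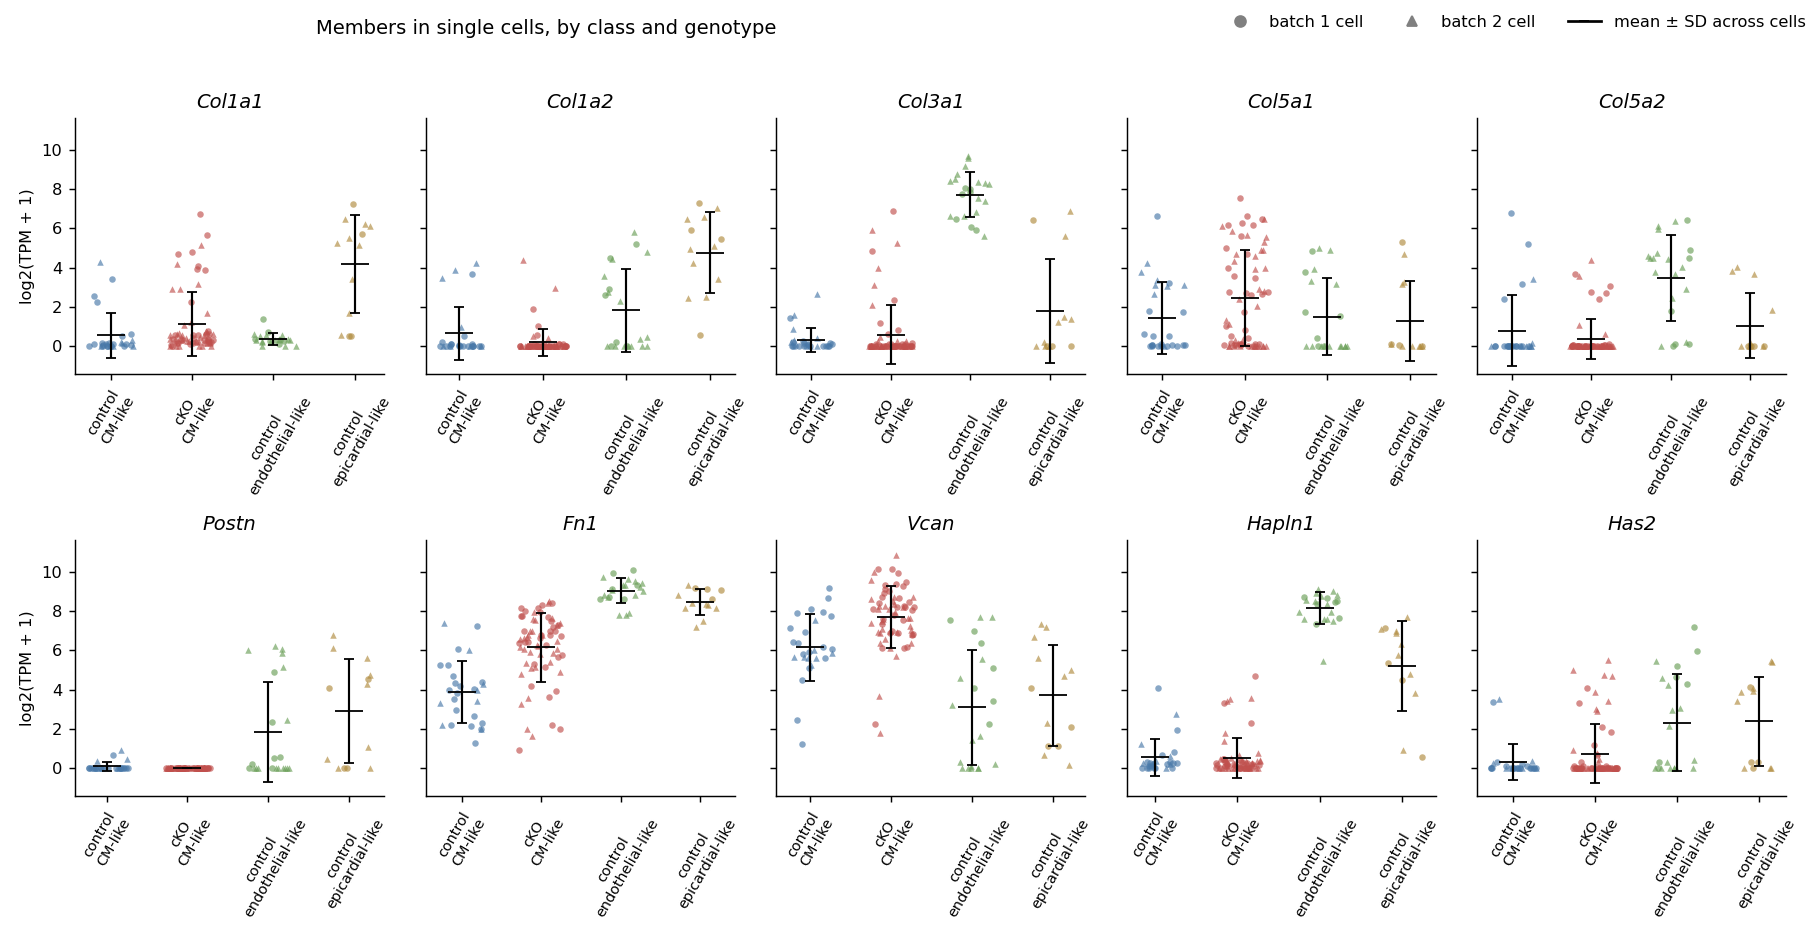
Level of each member, log2(TPM + 1), in every cell of the 4 groups (27 control and 67 cKO cardiomyocyte-like (CM-like), 22 control endothelial-like and 13 control epicardial-like cells). Circles are batch 1 and triangles batch 2 cells, and bars are the mean and SD across cells. Col3a1 and Hapln1 stand above all control cardiomyocyte-like cells in the endothelial-like group, and the Vcan means are highest in the cardiomyocyte-like groups.

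Among control cells, Vcan was highest in the cardiomyocyte-like class. It was detected in all 27 control cardiomyocyte-like cells (100%, 95% interval 87.2 to 100), at a lowest TPM of 1.32, a median of 62.7 and a highest of 573. Its mean was 6.17 ± 1.71 (SD) on the log2(TPM + 1) scale. Endothelial-like cells ranged from a TPM of 0 to 206 with a median of 5.91 and a mean level of 3.10 ± 2.93, and 14 of 22 had it. Epicardial-like cells had a median TPM of 16.2 and a mean level of 3.70 ± 2.58, with 11 of 13 cells detected. Every cardiomyocyte-like cell thus had Vcan and part of the others did, although the ranges of all classes overlapped. The endothelial-like level differed between batches, at 5.12 ± 1.97 in 7 cells of batch 1 and 2.16 ± 2.87 in 15 cells of batch 2, and cardiomyocyte-like cells stood above it in both, by 1.16 and 3.74. In epicardial-like cells the batches went the other way, at 2.12 ± 1.40 in 4 cells and 4.40 ± 2.73 in 9 cells.

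Hapln1, the link protein that fastens versican to hyaluronan, showed the opposite placement. Endothelial-like control cells had a lowest TPM of 43.6, a median of 341 and a highest of 552, and the mean level was 8.15 ± 0.81 with 22 of 22 cells detected. The highest control cardiomyocyte-like cell had a TPM of 15.9, and the median there was 0.191, so the groups did not overlap. The mean level in cardiomyocyte-like cells was 0.56 ± 0.95, which puts the endothelial-like cells 7.59 higher, by 7.75 in batch 1 and 7.40 in batch 2. Of all genes compared, 99.98% had a smaller difference. Epicardial-like cells lay between, with a median TPM of 54.2, a mean level of 5.22 ± 2.30 and 11 of 13 cells detected.

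Has2, the main hyaluronan synthase of the early heart, was patchy in every class. It was detected in 11 of 22 endothelial-like cells (50%, 28.2 to 71.8), in 7 of 13 epicardial-like cells (53.8%, 25.1 to 80.8) and in 2 of 27 cardiomyocyte-like control cells (7.41%, 0.910 to 24.3). The highest cell of each had a TPM of 145, 42.8 and 10.3. Mean levels were 2.31 ± 2.48, 2.38 ± 2.26 and 0.31 ± 0.91, and the first and second of these did not differ beyond their spread when pooled. Within batches they parted in opposite directions. The epicardial-like level lay at -2.76 from the endothelial-like level in batch 1 and 1.36 above it in batch 2. Within endothelial-like cells Has2 was at 3.94 ± 2.75 in batch 1 and 1.55 ± 2.00 in batch 2, and both lay above the cardiomyocyte-like level of the same batch, by 3.72 and 1.04.

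All 3 gel genes were found in the same cell in a minority of each class. Vcan, Hapln1 and Has2 were detected together in 6 of 22 endothelial-like, 5 of 13 epicardial-like and 1 of 27 control cardiomyocyte-like cells. At a TPM above 0 these counts were 10, 9 and 7, so 9 of 13 epicardial-like cells then held all 3. At a TPM of at least 1, Vcan without either partner was found in 22 of 27 control cardiomyocyte-like cells, 0 endothelial-like cells and 1 epicardial-like cell. This depended on the threshold. At a TPM above 0, all 27 control cardiomyocyte-like cells had Vcan, 20 had Hapln1 and 6 had neither partner. Within endothelial-like cells Vcan was found with Hapln1 in 14 of 22, and the remainder had Hapln1 without Vcan. Across those 22 cells Vcan and Hapln1 had a Pearson r of 0.30 and a Spearman rho of 0.14, and Vcan and Col3a1 had an r of -0.45 and a rho of -0.43. These cells share a batch split in Vcan, given above, and the r values are descriptions only.

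**Figure D2:**
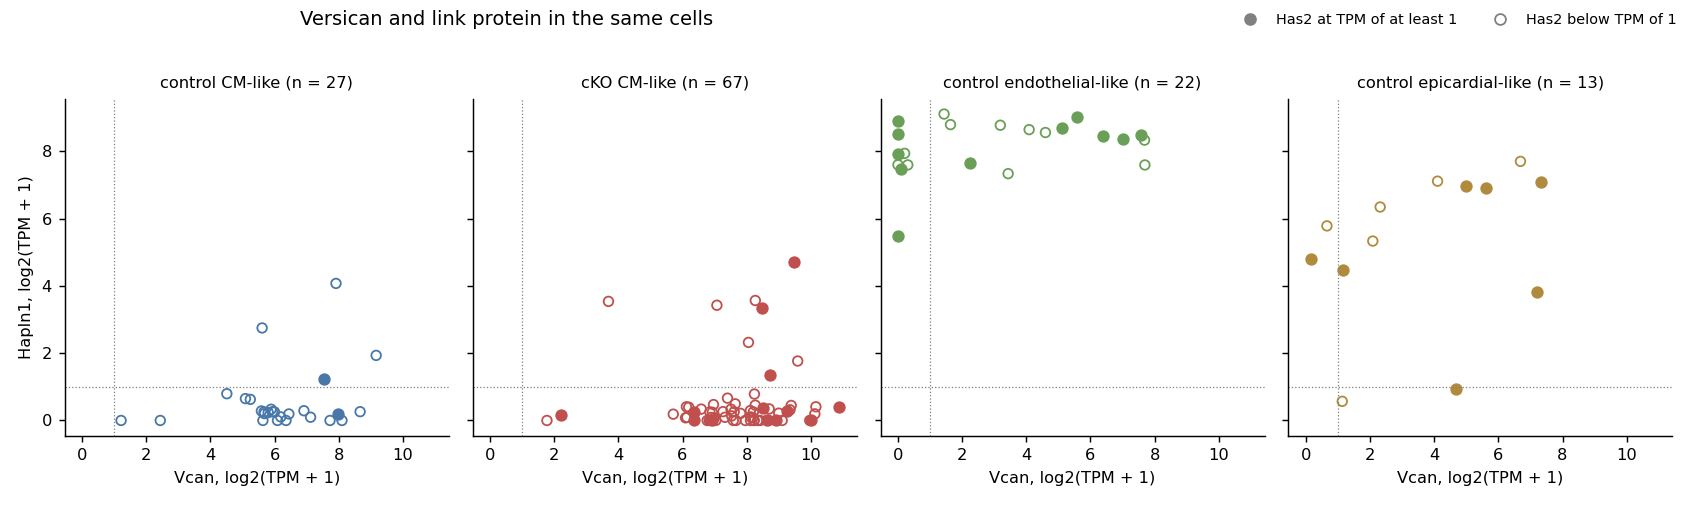
Vcan (x axis) against Hapln1 (y axis), both log2(TPM + 1), in each cell of the 4 groups. Filled points are cells with Has2 at a TPM of at least 1, and dotted lines mark a TPM of 1. Cardiomyocyte-like cells of both genotypes lie along the bottom with Vcan and little Hapln1, and all 22 endothelial-like cells lie high on the Hapln1 axis, 8 of them with Vcan below 1 TPM.

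Fn1 transcripts were found in all 3 classes and were highest outside the cardiomyocyte-like cells. Fn1 was detected in each of the 27 cardiomyocyte-like, 22 endothelial-like and 13 epicardial-like control cells. Endothelial-like cells ran from a TPM of 219 to 1105 with a median of 549, and epicardial-like cells from 142 to 649 with a median of 341. Cardiomyocyte-like control cells ran from 1.42 to 168 with a median of 14.7, so the endothelial-like cells lay wholly above them and 12 of 13 epicardial-like cells did. Mean levels were 9.03 ± 0.64, 8.47 ± 0.65 and 3.88 ± 1.59, and the first and second did not differ beyond their spread. The endothelial-like excess over cardiomyocyte-like cells was 5.15 (5.41 in batch 1 and 4.87 in batch 2) and the epicardial-like excess was 4.59 (5.19 and 4.17).

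Periostin, a matricellular protein that later marks valve and fibroblast matrix, was found in endothelial-like and epicardial-like cells. Postn was detected in 0 of 27 control cardiomyocyte-like cells (limit 11.1%), in 8 of 22 endothelial-like cells (36.4%, 17.2 to 59.3) and in 8 of 13 epicardial-like cells (61.5%, 31.6 to 86.1). Its highest TPM was 73.3 in endothelial-like and 109 in epicardial-like cells, against 0.873 in cardiomyocyte-like cells. Mean levels of 2.90 ± 2.66 in epicardial-like and 1.84 ± 2.53 in endothelial-like cells did not differ beyond their spread.

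Among control classes, the chains of collagen I were found together in epicardial-like cells. Col1a1, the chain used as a pair in the trimer, was detected in 10 of 13 epicardial-like cells at a median TPM of 37.6 (range 0.410 to 150), and its mean level was 4.18 ± 2.51. Col1a2, its partner, was detected in 12 of 13 at a median TPM of 33.2 (range 0.456 to 154), with a mean level of 4.77 ± 2.04. Both were found in 10 of 13 epicardial-like cells, in 0 of 22 endothelial-like cells (limit 13.6%) and in 0 of 27 cardiomyocyte-like cells (limit 11.1%). These counts depend on the threshold, since at a TPM above 0 both chains were found in 13 of 13, 12 of 22 and 7 of 27. In endothelial-like cells Col1a2 was detected in 10 of 22 and Col1a1 in 1 of 22, with mean levels of 1.81 ± 2.10 and 0.36 ± 0.30. At a TPM above 0 the order turned, to 13 and 19 of 22. The endothelial-like excess in Col1a2 over cardiomyocyte-like cells rested on batch 1, where it was 1.95, while in batch 2 it was 0.06.

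Col3a1, the single chain of the collagen III homotrimer, was the collagen of the endothelial-like cells. Their lowest TPM was 48.6, the median 244 and the highest 834, with a mean level of 7.72 ± 1.16. The highest control cardiomyocyte-like cell had a TPM of 5.18 and the mean level there was 0.31 ± 0.62, so no cell overlapped. The difference was 7.40, at 7.03 in batch 1 and 7.22 in batch 2. Epicardial-like cells were split, with 6 of 13 detected, a median TPM of 0.144 and a highest of 115. They lay 5.94 below the endothelial-like cells on the log2 scale, with means of 1.78 and 7.72.

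The chains of collagen V did not share a pattern. Col5a2, like Col3a1, had its highest mean in endothelial-like cells, at 3.45 ± 2.20. There it was detected in 17 of 22 cells, with a median TPM of 17.8 and a highest of 83.8. It was at 1.04 ± 1.68 in epicardial-like and 0.78 ± 1.80 in control cardiomyocyte-like cells. Col5a1 had pooled levels close to each other in the 3 control classes, at 1.43 ± 1.81, 1.49 ± 1.96 and 1.28 ± 2.03 in cardiomyocyte-like, endothelial-like and epicardial-like cells, and none of these differed beyond their spread. Within batches they parted in opposite directions: the endothelial-like level was 0.96 above the cardiomyocyte-like level in batch 1 and lay at -1.56 from it in batch 2, and the epicardial-like differences were 0.55 and -1.67. Both chains were found together in 8 of 22 endothelial-like, 0 of 13 epicardial-like and 3 of 27 control cardiomyocyte-like cells. In control cardiomyocyte-like cells the Col5a1 level differed between batches, at 0.81 ± 1.65 (4 of 19 cells detected) and 2.92 ± 1.28 (7 of 8).

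**Figure D3:**
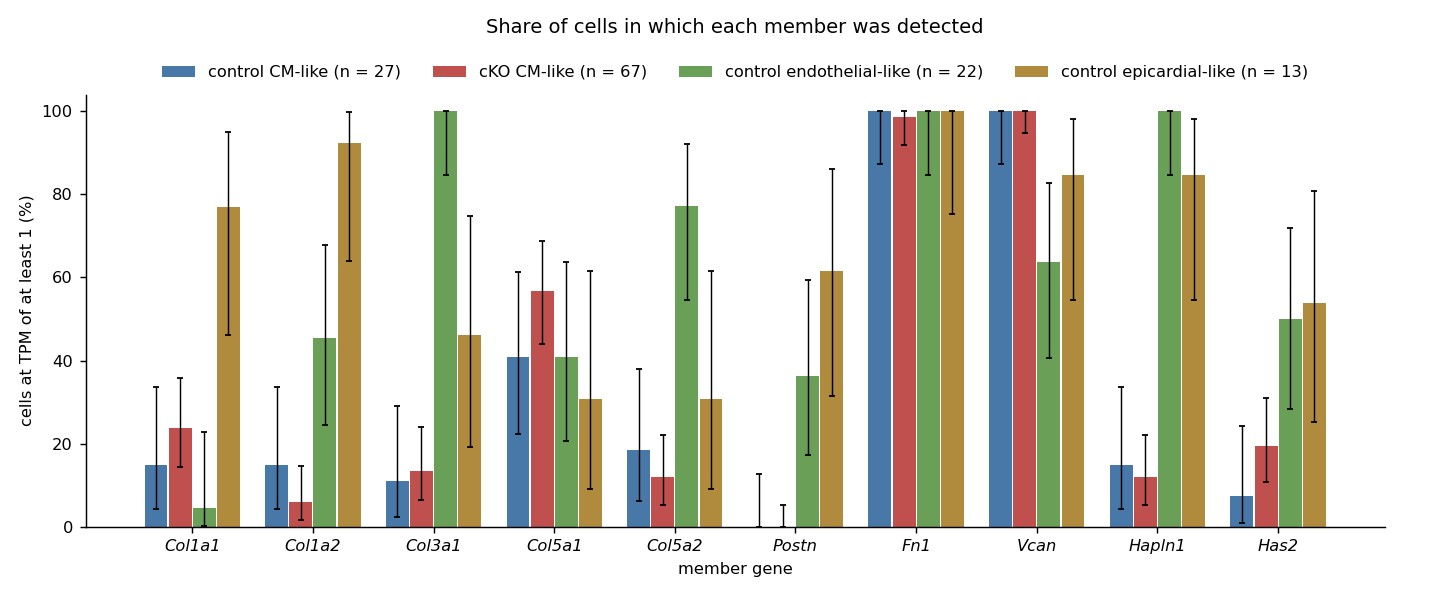
Share of cells (y axis, %) in which each member (x axis) had a TPM of at least 1, in the 4 groups, with exact 95% intervals as error bars. Fn1 and Vcan reach 98.5% to 100% in cardiomyocyte-like cells of both genotypes, Postn is at 0 there, and Col3a1 and Hapln1 reach 100% in endothelial-like cells.

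Erythroid cells should lack these matrix genes, yet the erythroid-like class was not free of them. In it the median number of detected genes was 8579, beside 9302 and 8650 in control and cKO cardiomyocyte-like cells. Col3a1 was detected in 3 of these 5 cells, Hapln1 in 2 of 5, and Col1a1, Col1a2 and Col5a1 in 1 of 5 each. Fn1 was detected in 4 of 5 at a mean level of 4.68 ± 2.90, beside 3.88 ± 1.59 in control cardiomyocyte-like cells, and Vcan in 3 of 5 at 3.37 ± 3.38, beside 6.17 ± 1.71. The highest erythroid-like TPM of Col1a2 was 206, above the 154 of the highest epicardial-like cell, and the class had a mean Actc1 level of 10.6. Transcripts typical of other classes were thus detected in these cells, which set no background level. The origin of those transcripts was not tested. Shares of Col1a1, Col1a2, Col3a1 and Hapln1 in control cardiomyocyte-like cells were 11.1% to 14.8%, and how much of them came from other cells was not tested. Markers of other classes were at hand in the same cells. Summed endothelial marker TPM had a median of 17.2 in control (range 1.82 to 105) and 14.4 in cKO cardiomyocyte-like cells (3.09 to 207), summed over 13 markers, of which 10 were detected in some cell of each genotype. Epicardial marker sums were 24.4 (0.306 to 547, 6 of 8 markers) and 34.8 (0 to 454, 7 of 8, with Bnc1 at 0), and mesenchymal sums 30.7 (0 to 130, 9 of 12) and 35.6 (0.0462 to 373, 12 of 12). Erythroid sums were 3.19 (0 to 357, 7 of 8) and 9.49 (0 to 816, 7 of 8, with Klf1 at 0), and cardiomyocyte sums, over 15 markers detected in both genotypes, had medians of 61824 and 88140.

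Among control cells, the genes nearest in pattern to the members were read by Pearson r over all 74 cells, among 12680 genes detected in at least 10 of them. The mean of the 5 fibrillar collagens was followed most closely by Nid1, a basement membrane linker (r = 0.80), Ets1, a transcription factor of endothelium (0.78), Igfbp4 (0.77), Iqgap1 (0.77) and Tgif1 (0.77). All 5 had their highest mean in endothelial-like cells. The mean of the 3 gel genes was followed by Lgals1 (0.69), Plat, which encodes tissue plasminogen activator (0.68), Sptbn1 (0.68), Dusp6, a phosphatase of the ERK pathway (0.67), and Sorbs3 (0.66). The cells share classes, so these r values mostly restate which class a gene is high in, and genes are not independent of each other.

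In cardiomyocyte-like cells, Fn1 and Vcan, the pair of members found in every control cell of that class, were higher in cKO than in control hearts. They were 2 of the 10 members to meet the rule (9 passed the filter of a TPM above 0 in more than 10 cells), in a comparison where 6.34% of 15071 genes did. Members lower in cKO cells numbered 0, where 6.18% of genes were lower. Only Fn1, Vcan and Col5a1 had control means above 1. No other member could fall by 1, so the 0 is no result for them. The median difference of the 10 members was 0.35, beside 0.05 over all genes. By batch the members' median was 0.30 and -0.12, beside 0.17 and -0.20 over all genes, and 4 of 10 members were higher in both batches, 4 lower in both and 2 mixed.

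Fn1 had the larger difference. In control cells its TPM had a lowest value of 1.42, a median of 14.7 and a highest of 168, and in cKO cells a lowest of 0.887, a median of 93.1 and a highest of 370. The groups overlapped, but 58 of 67 cKO cells lay above the control median and 17 above the highest control cell. The mean level was 3.88 ± 1.59 in 27 control and 6.15 ± 1.76 in 67 cKO cells, a difference of 2.27, or 4.81-fold on the TPM + 1 scale. It was 2.45 in batch 1 and 1.97 in batch 2, and 99.4% of the genes compared had a smaller one. The cKO level was still below the 8.47 and 9.03 of control epicardial-like and endothelial-like cells.

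Vcan was higher from an already high control level. Its median TPM was 62.7 in control and 247 in cKO cells, with ranges of 1.32 to 573 and 2.42 to 1887. Here 63 of 67 cKO cells lay above the control median and 10 above the highest control cell. The mean level was 6.17 ± 1.71 in control and 7.70 ± 1.60 in cKO cells, a difference of 1.53 (1.70 in batch 1 and 1.52 in batch 2), or 2.90-fold on the TPM + 1 scale, and 97.6% of the genes compared had a smaller one. The difference was less than 1 SD across cells, whereas that of Fn1 was more. In single cells Fn1 and Vcan were both detected in 66 of 67 cKO and 27 of 27 control cells, and Vcan had the higher TPM in most, since Fn1 exceeded it in 9 and 4 of them. Across cells their levels had an r of 0.43 and a rho of 0.44 in cKO, and 0.30 and 0.27 in control. Fn1 also had an r of 0.33 and 0.49 with the number of detected genes in cKO and control cells, and Vcan of 0.28 and 0.07, and the part of depth in the differences was not tested. The median number of detected genes in cKO and control cells was 9845 and 8458 in batch 1, and 7765 and 9704 in batch 2.

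**Figure D4:**
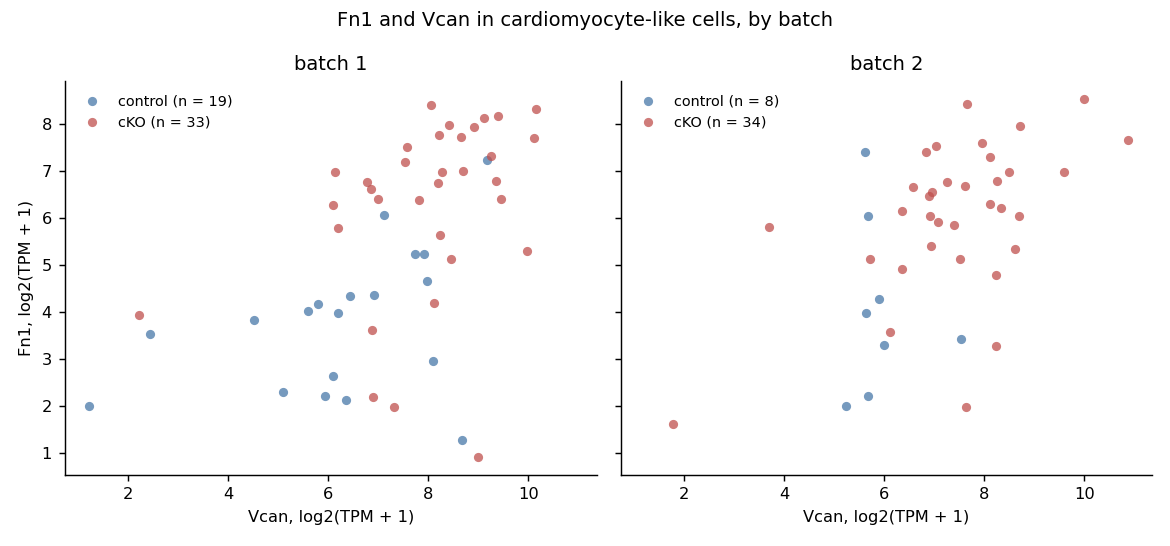
Vcan (x axis) against Fn1 (y axis), both log2(TPM + 1), in cardiomyocyte-like cells of each batch, with control cells in blue and cKO cells in red. The groups overlap: of 67 cKO cells, 58 lie above the control median for Fn1 and 63 for Vcan, and 17 and 10 lie above the highest control cell.

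The partners of versican did not meet the rule. In cKO hearts Hapln1 was detected in 8 of 67 cardiomyocyte-like cells and in control hearts in 4 of 27, with highest TPM of 25.1 and 15.9, and its mean level was 0.51 ± 1.01 and 0.56 ± 0.95, a difference of -0.04. Has2 was detected in 2 of 27 control cells and 13 of 67 cKO cells (19.4%, 10.8 to 30.9), and the highest cKO cell had a TPM of 44. Its mean level was 0.31 ± 0.91 and 0.74 ± 1.49, and the difference of 0.43 (0.20 in batch 1, 0.53 in batch 2) was within 1 SD. At a TPM of at least 1, Vcan without Hapln1 or Has2 was found in 49 of 67 cKO cells, and all 3 in 3 of 67. At a TPM above 0, all 67 had Vcan, 44 had Hapln1, 17 had neither partner and 16 had all 3.

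None of the collagen members met the rule in cKO cells. Col5a1 came nearest, with a mean level of 1.43 ± 1.81 in control and 2.45 ± 2.44 in cKO cells and detection in 11 of 27 and 38 of 67. The pooled difference of 1.01 did not hold within batches, at 1.75 in batch 1 and -0.57 in batch 2, where the control level was the higher. Detection of Col1a1 was at 4 of 27 control cells and 16 of 67 cKO cells, and the highest TPM were 18.7 and 106. Its mean level was 0.56 ± 1.15 and 1.12 ± 1.63, with differences of 0.81 and 0.29 by batch. Col3a1 was detected in 3 of 27 and 9 of 67 cells, with a difference of 0.27 that changed sign between batches (0.40 and -0.12).

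The chains Col1a2 and Col5a2 had lower means in cKO cells, but with control means below 1 they could not meet the rule for lower. Col1a2 was found in 4 of 27 control cells and 4 of 67 cKO cells, at mean levels of 0.64 ± 1.37 and 0.18 ± 0.69. Its difference of -0.46 came mostly from batch 2 (-1.33, with 3 of 8 control cells detected) and was -0.13 in batch 1. Col5a2 was detected in 5 of 27 and 8 of 67 cells, with a difference of -0.41. All 8 cKO cells with Col5a2 also had Col5a1, whereas Col1a1 and Col1a2 were found together in 2 of 67. Postn was listed at 0 in all 67 cKO cells, with a limit of 4.48% on the share detected, and was below a TPM of 1 in all 27 control cells.

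**Figure D5:**
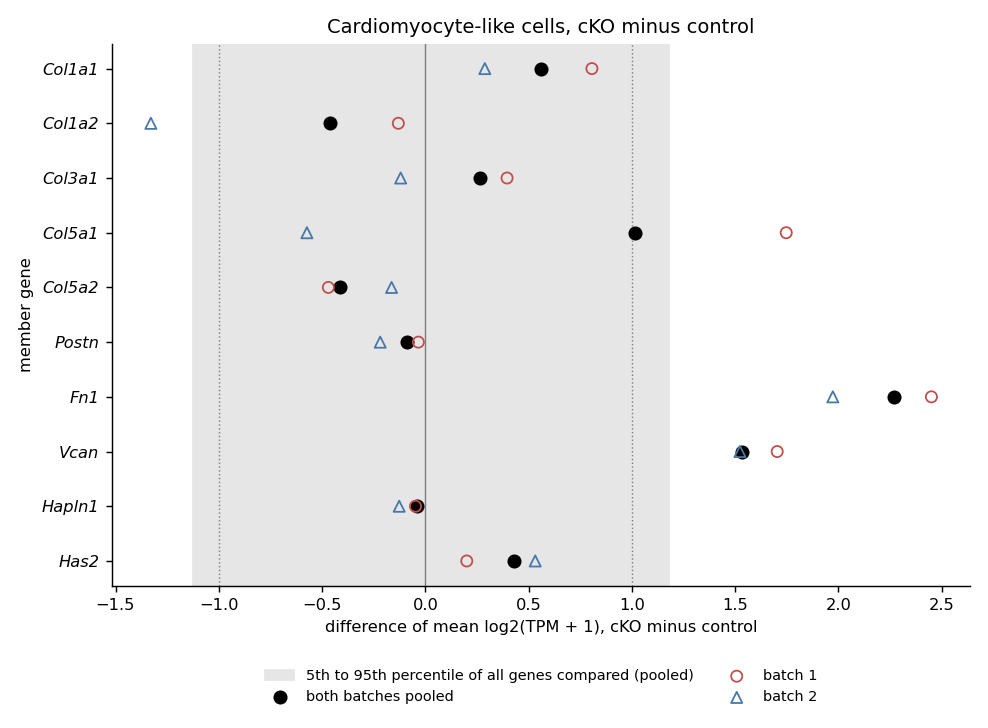
Difference of mean log2(TPM + 1), cKO minus control cardiomyocyte-like cells (x axis), for each member (y axis), pooled (black) and within batch 1 (open circles) and batch 2 (open triangles). The grey band spans the middle of the pooled differences of all 15071 genes, from -1.13 to 1.18. No band was drawn for the single batches, and dotted lines mark a difference of 1 either way. Fn1 and Vcan lie beyond the band pooled and in both batches, and Col5a1 splits by batch.

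Set against the seed matches above, Fn1 and Vcan were both members with no miR-29, let-7a or miR-541-5p match in the 3′UTR searched. Of the 6 members with a miR-29 match, 0 met the rule, and those whose difference changed sign between batches, Col3a1 with 1 match and Col5a1 with 4, were both among them. Across the table, 7.56% of the 1930 genes with a miR-29 match were higher in cKO cells and 5.75% were lower, against 7.15% and 6.90% of the 11887 compared genes with an annotated 3′UTR. Their median difference was 0.09 against 0.06, and their 3′UTRs were longer, with a median of 2550 bases against 1273. Regulation through these letters was not tested.

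Other matrix genes in the same cells were taken from 5 lists of 84 genes that hold no member. Of these, 56 passed the filter, 8 were higher in cKO cardiomyocyte-like cells and 2 were lower, in a comparison where 6.34% and 6.18% of all genes were. Across the alternatives tried, 5 to 16 were higher and 0 to 7 lower. The share of all genes ran from 1.89% to 15.1% higher and from 1.42% to 26.4% lower. In the list of hyaluronan synthesis, turnover and link proteins, 1 of 7 was higher: Ugdh, the dehydrogenase that makes the glucuronate precursor of hyaluronan and of chondroitin sulfate, was at 4.83 ± 2.05 in control and 6.64 ± 1.55 in cKO cells (difference 1.81, and 1.76 and 2.01 by batch). It was found in 25 of 27 control cells and 65 of 67 cKO cells. The list's median difference was -0.06, at 0.17 in batch 1 and -0.14 in batch 2.

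Among fibrillar collagen chains and assembly factors, 1 of 14 was higher and 1 lower, with a median difference of 0.22. The median changed sign between batches, at 0.36 in batch 1 and -0.23 in batch 2. P3h1 (row Lepre1), a prolyl hydroxylase of procollagen, was higher by 1.18, though by only 0.28 in batch 2. Loxl1, a lysyl oxidase that cross-links elastic fibres, was lower, at 1.84 ± 2.05 in control and 0.38 ± 1.13 in cKO cells, a difference of -1.46. Its detection was 12 of 27 and 6 of 67 cells.

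Elastic and fibril-associated matrix had the most genes higher, 3 of 15, and a median difference of 0.61 pooled, 0.41 in batch 1 and 0.05 in batch 2. Efemp2, a fibulin of elastic fibre assembly, was at 1.33 ± 1.94 in control and 3.70 ± 3.09 in cKO cells (higher by 1.52 and 3.14 by batch). Fbn2, the fibrillin of embryonic microfibrils, was at 3.15 ± 1.74 and 5.45 ± 1.17, higher by 1.85 and 2.81 within batches, and was detected in all 67 cKO cells and 23 of 27 control cells. The third was Col12a1.

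In the list of matrix proteases and their inhibitors, 1 of 12 was higher, Adamts9, a secreted protease that cleaves versican, by 1.22 (1.66 and 0.61 by batch). The list's median was 0.13, at 0.21 in batch 1 and 0.09 in batch 2. Of the receptors other than integrins, 2 of 8 were higher and 1 lower, with a median of 0.06. That median was 0.36 in batch 1 and -0.29 in batch 2. Cd44, the hyaluronan receptor, was higher by 1.79 and Sdc4, a syndecan of focal adhesions, by 1.93, but both rested on batch 1, at 2.69 and 2.75, with 0.14 and 0.34 in batch 2. Sdc1 was lower, at 2.19 ± 2.23 in control and 0.72 ± 1.44 in cKO cells, a difference of -1.47.

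Dgcr8 itself was at 2.41 ± 2.89 in control and 1.66 ± 2.46 in cKO cardiomyocyte-like cells, with 14 of 27 and 21 of 67 cells detected. The difference was -0.20 in batch 1 and -1.06 in batch 2. The values cover the whole transcript, and which part of it the allele loses is not given in the sources used here, so this row is no check of the labels.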

How the data were processed

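Single cells were lysed and amplified with Smart-seq2 and sequenced as paired-end reads by the authors, who quantified transcripts with Salmon (mm10 per the labels, versions not given in the sources used here), kept cells above a minimum mapping rate, and deposited a table of TPM values. Its 143 columns sum to between 996133 and 999999, 0 pairs of columns are identical, and 27 of the 170 labelled samples were not analysed here. The labels name no embryo. From the TPM values, log2(TPM + 1), detection at a TPM of at least 1, exact intervals and differences of means were computed in Python 3.11.15 (numpy 2.4.6, pandas 2.3.3, scipy 1.17.1), pooled and within batch. Cells were put into 5 Ward clusters on z-scored log2(TPM + 1) of the markers, named from at least 3 raised markers found in over 50% of the cells. A gene was called higher or lower at a difference of at least 1 with the same direction in each batch holding 3 or more cells of both groups, among genes with a TPM above 0 in more than 10 of the cells compared. The difference script was tested on simulated data.

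The members and lists were chosen with earlier results of these data known, and the naming thresholds follow an earlier analysis of them. The text names all 10 members, in each of the 5 matrix lists the 2 largest differences each way among called genes, the 5 genes nearest in pattern to each of the collagen and gel sets, Dgcr8, Xist and Ddx3y. Col12a1 was named after its value was seen. The microRNAs were chosen from textbook knowledge and the study's subject, and seed matches were read from the longest GENCODE M21 3′UTR of each gene (GRCm38, the mm10 build).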

Additional observations from a re-analysis of the deposited data

Results flagged for a closer look

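Members were also detected in cells outside the comparisons between groups. Among the 9 unnamed cells, which were led by mitochondrial transcripts, Vcan was detected in 7 (77.8%, 39.99 to 97.2) and Fn1 in 5 (55.6%, 21.2 to 86.3), above the limit of 3 cells. Among the 5 erythroid-like cells Fn1 was detected in 4 (80%, 28.4 to 99.5), with a highest TPM of 224.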

How the results depend on the processing

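Fn1 and Vcan were higher in cKO cardiomyocyte-like cells under all 14 alternatives run for that comparison, by 1.72 to 2.51 and 1.28 to 1.87 where a difference was computed. Among the 318 values recomputed, 20 had the opposite sign, 0 of them for Fn1 or Vcan: 7 were differences of Col3a1 (-0.12) and Col5a1 (-0.57) in batch 2 and of Hapln1 (0.003 to 0.08), 12 were list medians, and 1 was the members' median in batch 2 (-0.12). With a log2 ratio of mean TPM + 1, 6 members were higher and 2 lower, and their median difference was 1.25, while over all genes 15.1% were higher, 4.53% lower and the median difference 0.20, beside 6.34%, 6.18% and 0.05. Otherwise 2 or 3 members were higher and 0 lower, with Col1a1 added at a pseudocount of 0.1 and Col5a1 in batch 1 alone. Members higher in endothelial-like cells were 4 at a pseudocount of 10 and 4 with a filter of TPM of at least 1 in over 50% of cells. Those higher in epicardial-like cells were 4 in batch 1 alone. The shares of all genes were not computed for these alternatives of the class comparisons. Genes of the matrix lists called higher were 13 and lower 5 at a pseudocount of 0.1, 5 and 0 at 10, 14 higher in batch 1, 5 and 7 in batch 2, 16 higher with 4 clusters and 13 with the 48 cKO and 22 control cells poorest in other markers. Those lower were 0 with the 50% filter and 6 with clusters on the 1000 most variable genes, where endothelial-like and epicardial-like cells fell into 1 class of 36 and gave no epicardial value. Counting a TPM above 0 as detected, members found in over 50% of cKO and control cardiomyocyte-like and of endothelial-like cells were 5, 6 and 8, and cells with all 3 gel genes were 16, 7, 10 and, in epicardial-like cells, 9. At a TPM of at least 10 the latter were 0, 0, 5 and 3. The causes were not tested. No paired analysis was possible because titles number single cells and the labels tie no cell of one genotype to a cell of the other. Depth limits low genes: with no counts, a value of 0 could not be told from too few reads.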
